A study of Mus musculus with 8 samples.

Results

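The lysosomal genes described here are 45 of 35275 genes in an RNA sequencing study of tumor-associated macrophages (TAMs). They were picked by name, with earlier results of these data known. They code for 16 subunits and accessory proteins of the proton pump, 7 membrane and lipid transport proteins, 19 hydrolases and hydrolase activators other than cathepsins, and the 3 transcription factors of the TFEB family. The TAMs were CD11b+ F4/80+ Ly6G- Ly6C- cells sorted from subcutaneous MC38 tumors, a mouse colon carcinoma line, on day 21 after 100000 cells were implanted in female C57BL/6J hosts aged 6 to 8 weeks. There were 4 libraries labelled Atg5 KO, from hosts with floxed Atg5 alleles and LysMcre, and 4 libraries labelled Atg5 WT, from hosts with the same floxed alleles and no Cre, each from a separate mouse numbered 1 to 4. LysMcre is a Cre recombinase inserted in the Lyz2 gene and active in myeloid cells in general, so the deletion is limited neither to macrophages nor to the tumor, and only the KO-labelled hosts carry Cre.

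Lysosomes are the acidic compartments in which macrophages break down what they engulf and what autophagosomes deliver to them. The vacuolar ATPase (V-ATPase) pumps protons into the lumen. Its V1 sector, on the cytosolic side, hydrolyses ATP, and its V0 sector, in the membrane, carries the protons. Hydrolases in the lumen then cleave sugars, lipids and sulfate esters at low pH. TFEB, TFE3 and MITF are related factors that bind E-box sequences near the start of many of these genes, and mTORC1 controls their entry into the nucleus. Atg5 is needed to attach LC3 to membranes when autophagosomes form, and the comparison asked which lysosomal transcripts differ between TAMs labelled as lacking it and TAMs labelled as having it.

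The E-box core of the TFEB family motif was frequent in the promoters of these genes. A promoter sequence, from 250 bases before to 50 bases after the annotated start, was present in the RefSeq table (GRCm38.p6) for 38 of the 45 genes. The letters CACGTG, which read the same on both strands, were found in promoters of 12 of these 38 genes (31.6%), against 8.09% of the 27025 genes with a promoter in the table. The longer palindrome TCACGTGA, which contains CACGTG, was found in 5 of the 38 (13.2%), against 1.12% of all genes in the table. The full 10-base palindrome of the motif was found in 0 of the 38, against 0.370% of all. A form chosen after the data were seen, TCACGTG on either strand, was found for the same 12 genes (31.6%), against 4.29% of all. These genes were Arsa, Atp6v0b, Atp6v0d1, Atp6v0e, Atp6v1a, Gaa, Gla, Glb1, Lamp1, Mcoln1, Naglu and Sgsh. A match describes the letters and not a bound site.

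The following 27-base windows show one or more matches for the 5 genes with the longer palindrome and for Lamp1, Glb1 and Naglu, which have the shorter form. Capitals mark TCACGTG, the sequence is written 5′ to 3′ on the strand given, and the distance runs from the transcript start used by the RefSeq table to the centre of the motif. That start can differ from the gene start in the deposited table, as for Naglu, so the distances cannot be set against the gene coordinates given further on.
Atp6v1a, chr16:44139375-44139401, minus strand, -129 bases: tttttttaaaTCACGTGataggcttaa
Atp6v0d1, chr8:105566052-105566078, minus strand, -1 base: cctactgcggTCACGTGagacgcggtg
Atp6v0e, chr17:26676388-26676414, plus strand, 5 bases: agcgcgccgaTCACGTGagcctctgtt
Mcoln1, chr8:3500463-3500489, plus strand, -43 bases: ggcgccccgcTCACGTGaccgcggcgc
Gla, chrX:134601217-134601243, minus strand, -225 bases: aagcgattgaTCACGTGagcatctacg
Gla, chrX:134601184-134601210, minus strand, -192 bases: gagatctcggTCACGTGagcaactctc
Lamp1, chr8:13159089-13159115, plus strand, -59 bases: gggcaagataTCACGTGgtccagcgcc
Glb1, chr9:114401019-114401045, plus strand, -46 bases: tgcttctgagTCACGTGgcctacagag
Naglu, chr11:101070010-101070036, plus strand, -71 bases: aaccttcaggTCACGTGgcccgaggtc

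In the Mcoln1, Gla, Atp6v1a, Atp6v0d1 and Atp6v0e windows an a follows the capitals, which completes the longer palindrome. The motif sat within 71 bases of that start in the other 3 genes shown.

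Values are FPKM, fragments scaled to gene length and to the library's assigned total, as deposited. Differences are libraries labelled Atg5 KO minus Atg5 WT on the scale log2(FPKM + 1), tested with limma, two-sided, over the 11019 genes with a mean of at least 1 FPKM, with Benjamini-Hochberg adjustment. Each library held between 14799546 and 25555195 fragments assigned to genes, and a value of one of the 45 genes rested on 205 to 153024 fragments. Where single genes are also tested by exact permutation over the 70 assignments of 4 libraries against 4, the smallest p that can be reached is 0.0286.

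The labels were checked with Atg5 and Lyz2. Atg5 had 16.2, 13.8, 12.8 and 13.3 FPKM in KO-labelled mice 1 to 4, against 6.73, 3.504, 3.93 and 3.91 FPKM in Atg5 WT mice 1 to 4. This went against the label: each KO-labelled library was above each Atg5 WT library, with a log2 difference of 1.47 ± 0.17 (SE, limma adjusted p = 0.0987, and 0.00481 with the mouse number as a block). These values cover the whole gene, with exons that lie outside the floxed segment, and are therefore no check on whether that segment was removed. Lyz2, the gene that carries the Cre insertion, averaged 3022 ± 311 FPKM in KO-labelled and 5249 ± 825 FPKM in Atg5 WT libraries (SD, n = 4 each). Each KO-labelled library lay below each Atg5 WT library (log2 difference -0.79 ± 0.13 SE, limma adjusted p = 0.985, exact permutation p = 0.0286). Lyz2 was thus lower in the group labelled as carrying the insertion. Whether the insertion lowers Lyz2 RNA was not tested, so the direction of each difference below rests on the labels.

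Mouse 1 of each group lay far from the other 6 libraries on the first principal component (58.9% of the variance), and KO-labelled mouse 2 lay apart on the second (18.3%). The summed FPKM of 10 fibroblast markers was 219 in KO-labelled and 111 in Atg5 WT mouse 1, and 19.3 to 37.1 in the other 6 libraries, with Lum and Fap, 2 of the 10, under 1 FPKM throughout. Col3a1 carried most of that sum, with 149.1 FPKM in KO-labelled and 74.10 FPKM in Atg5 WT mouse 1, and at most 15.22 FPKM elsewhere. Col1a1 was not high in Atg5 WT mouse 1, where it had its lowest value of the 8 libraries. Macrophage markers were abundant in each library, their sum being 4932 to 7298 FPKM in KO-labelled and 6371 to 7593 FPKM in Atg5 WT libraries. Itgam, which codes for the CD11b used in the sort, did not overlap between the groups, with 290.1 to 349 FPKM in KO-labelled and 243 to 269 FPKM in Atg5 WT libraries (limma log2 difference 0.34 ± 0.10 SE, adjusted p = 0.999). The other macrophage markers did not share that sign as a group: of the 10, 3 differences were positive and 7 negative. The complement genes C1qa (log2 difference -0.43, limma p = 0.0315, exact permutation p = 0.0571) and C1qb (-0.35, limma p = 0.0335, exact permutation p = 0.0857) were below an unadjusted 0.05 in the other direction, each with an adjusted p of 0.999. Differences were positive in 7 of 8 monocyte markers (median 0.34), 4 of 5 neutrophil markers tested (0.75) and 5 of 5 fibroblast markers tested (0.64), none past an adjusted p of 0.05. In bulk samples such as these, fewer cells of a type and less RNA per cell cannot be told apart. The part of these shifts in the results below was not tested, and values without mouse 1 are given where they change a statement.

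All 45 genes were expressed and passed the filter. Psap, the precursor of the saposins that help enzymes reach their lipid substrates, was the most abundant with a mean of 2760 FPKM over the 8 libraries, above 99.9% of the genes tested. Lamp1 (353 FPKM), Cd63 (283 FPKM), Npc2 (264 FPKM) and Hexa (208 FPKM) followed. Sgsh, a heparan sulfate sulfatase, was the least abundant with a mean of 3.67 FPKM. In all, 13 of the 45 had a mean above 100 FPKM, 5 had a mean under 10 FPKM, and 40 lay above the median of the genes tested. They varied little between libraries: the highest library was 1.37 times the lowest in the median member, against 1.64 times for the median of all genes tested. Npc1 varied least (1.12 times). Only Tfeb (3.43 times) and Atp6v0d2 (2.70 times) reached a ratio of 2.

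**Figure D1:**
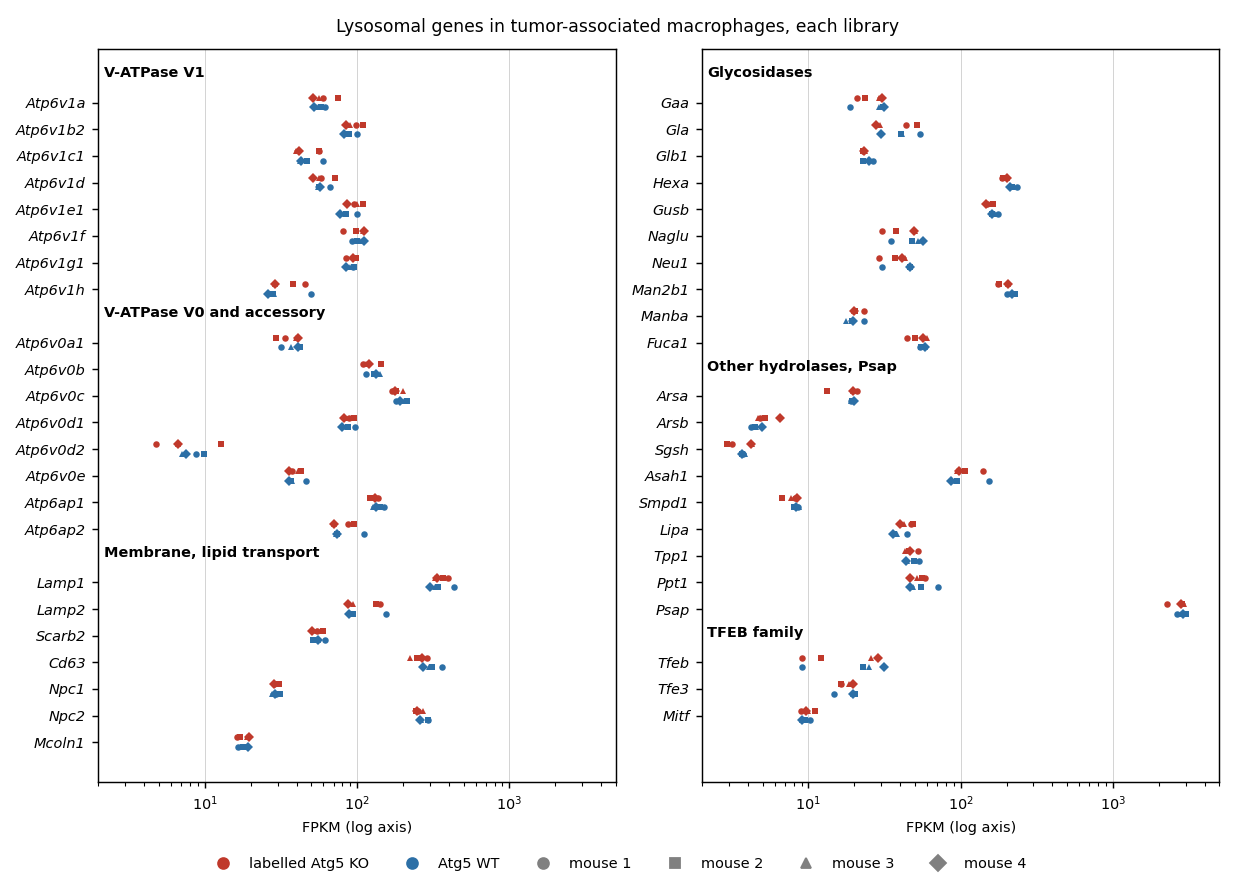
FPKM (log axis) of the 45 lysosomal genes in each library, with KO-labelled libraries in red above Atg5 WT libraries in blue for every gene and the mouse number given by the marker shape. Most genes hold their level across the 8 libraries, and Tfeb and Atp6v0d2 spread the most.

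None of the 45 genes passed the test between the groups. At an adjusted p under 0.05 the count was 0 of 45, and 0% of all genes tested passed, with limma on log2(FPKM + 1) as with voom on recovered fragments. At an unadjusted p under 0.05 it was also 0 of 45, against 2.02% of all genes tested (1.20% higher and 0.826% lower in KO-labelled libraries). The smallest p was that of Cd63, 0.0596, with an adjusted p of 0.999 (limma). The median log2 difference of the 45 was -0.04, with a range from -0.27 to 0.20, and the median of all genes tested was 0.03. Without both mouse 1 libraries it was 0.01. The difference was positive in 17 and negative in 28 of the 45 genes (24 were positive without mouse 1), whereas 58.5% of all genes tested had a positive and 41.5% a negative difference. Under median-of-ratios scaling, 10 of the 45 were positive, and under TPM scaling 21 were. These scalings also moved the median of all genes tested, to 0.00032 and 0.07, so these counts cannot be set against the 58.5%.

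The intervals bound how large a difference could have been missed. The 95% interval of the difference lay within 1.5-fold either way for 40 of the 45 genes, against 75.2% of all genes tested, and within 2-fold for 44 of the 45, against 96.1%. The shares over all genes, here and below, were not matched to the higher level of the 45. The exception to the 2-fold bound was Tfeb, with an interval from -1.20 to 0.72. With the mouse number as a block, all 45 lay within 1.5-fold, where 92.7% of all genes did, and all 45 within 2-fold, where 99.1% did. That pairing by number rests largely on mouse 1. Without mouse 1 of both groups and with no block, 3 mice per group remained. The intervals of Gla (-0.64 to 0.48) and Atp6v0d2 (-0.53 to 0.61) then went past 1.5-fold, and that of Tfeb (-1.01 to 0.38) past 2-fold.

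With the mouse number as a block, 3 of the 45 had an unadjusted p under 0.05, against 8.81% of all genes tested. Lipa was the 1 called higher in KO-labelled libraries (adjusted p = 0.565), where 5.19% of all genes were, and Cd63 (adjusted p = 0.564) and Naglu (adjusted p = 0.565) were called lower, where 3.62% of all genes were. None of the 3 passed after adjustment, and Atg5 was the 1 gene of all those tested that passed (0.00908%). Without both mouse 1 libraries, 2 of the 45 had an unadjusted limma p under 0.05, against 5.61% of all genes. These were Lipa, called higher like 3.43% of all genes, and Cd63, called lower like 2.18%. Again 0.00908% of all genes passed after adjustment, with none of the 45 among them.

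**Figure D2:**
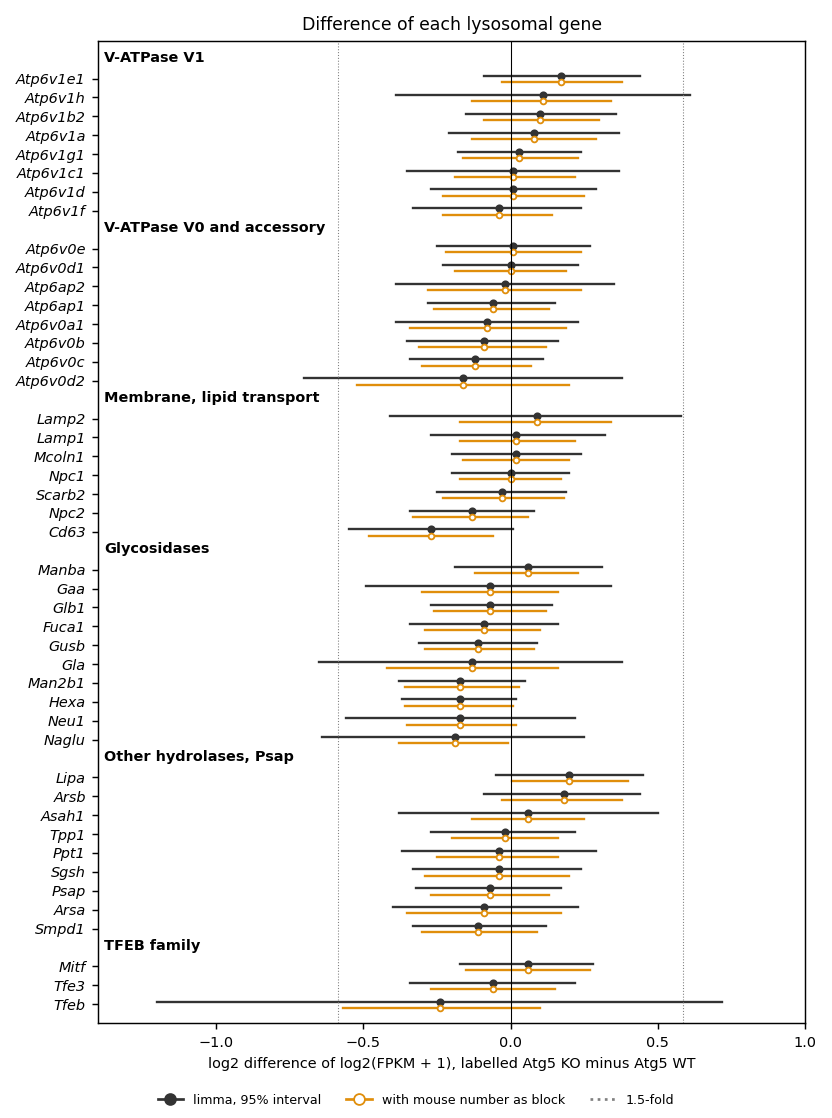
Difference in log2(FPKM + 1), KO-labelled minus Atg5 WT, of each gene with its 95% interval from limma (black) and from the blocked fit (orange, open), n = 4 libraries per group. Nearly all intervals cross 0, and 40 of the 45 black ones lie between the dotted lines at 1.5-fold.

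The V1 sector had the most genes with positive differences, 7 of 8, with a median of 0.06 and no p under 0.05. Atp6v1e1, a subunit of the stalk that holds the motor in place, had 95.7, 109, 100.5 and 85.2 FPKM in KO-labelled mice 1 to 4, against 99.7, 85.1, 83.5 and 77.6 FPKM in Atg5 WT mice 1 to 4. The KO-labelled library was the higher one in mice 2, 3 and 4, and the groups overlapped (log2 difference 0.17 ± 0.12 SE, limma p = 0.167, adjusted p = 0.999, exact permutation p = 0.143).

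Atp6v1b2, the B subunit that takes part in ATP binding, had 98.1, 109, 90.3 and 85.0 FPKM in KO-labelled libraries and 99.9, 88.2, 84.6 and 82.2 FPKM in Atg5 WT libraries. The groups overlapped here too (log2 difference 0.10 ± 0.11 SE, limma p = 0.379, exact permutation p = 0.286). Atp6v1f, a subunit of the central rotor and the most abundant of the sector, was the exception in sign, with 80.2, 98.0, 109 and 112 FPKM in KO-labelled and 92.3, 99.7, 107 and 110.4 FPKM in Atg5 WT libraries (log2 difference -0.04 ± 0.13 SE, limma p = 0.730, exact permutation p = 0.771). In both groups it was lowest in mouse 1.

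The sign of the V1 differences depended on which libraries were kept. KO-labelled mouse 2 was the highest of the 8 libraries in 5 of the 8 genes, Atp6v1a, Atp6v1b2, Atp6v1d, Atp6v1e1 and Atp6v1g1, where 12.8% of all genes had their highest value in it. Without that library 4 of the 8 differences were positive and the median was -0.01. Without mouse 1 of both groups 8 of the 8 were positive with a median of 0.11, and without Atg5 WT mouse 1 alone the median was 0.12. In the mouse 1 pair alone 0 of the 8 were higher in the KO-labelled library. Atp6v1h, a regulatory subunit where the sectors meet, had the widest spread of the sector, 28.7 to 45.1 FPKM in KO-labelled and 26.1 to 49.7 FPKM in Atg5 WT libraries, and in both groups its highest value was that of mouse 1. Atp6v1a and Atp6v1d lay between 51.0 and 74.6 FPKM in KO-labelled libraries and 52.5 and 66.3 FPKM in Atg5 WT libraries, Atp6v1c1 between 39.6 and 56.6 FPKM in KO-labelled and 42.2 and 59.4 FPKM in Atg5 WT libraries. Atp6v1g1 lay between 84.5 and 97.6 FPKM in KO-labelled and 84.5 and 95.3 FPKM in Atg5 WT libraries.

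The V0 sector and its accessory proteins went the other way in sign, with 1 of 8 differences positive, a median of -0.07 and no p under 0.05. Without mouse 1 of both groups 4 of the 8 were positive and the median was -0.0012, and with array weights, which give less weight to libraries that vary more, it was -0.01. Atp6v0c, which forms most of the proton-carrying ring, was the most abundant subunit with 169, 180.1, 199.6 and 178 FPKM in KO-labelled libraries, against 181, 212, 203 and 192 FPKM in Atg5 WT libraries. It was lower in the KO-labelled library of each of the 4 numbered pairs, but the groups overlapped (log2 difference -0.12 ± 0.10 SE, limma p = 0.269, adjusted p = 0.999, exact permutation p = 0.143). The labels name only separate mice, so pairs here and below join libraries by mouse number alone. Of the 45 genes, Atp6v0c, Cd63, Hexa, Naglu, Neu1, Man2b1, Lipa and Arsb kept their sign in all 4 pairs. The share of all genes tested that did so is not given here, so this is read no further.

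Atp6v0b, another subunit of the ring, had 109, 143, 114 and 119 FPKM in KO-labelled and 115, 129, 140.3 and 133 FPKM in Atg5 WT libraries (log2 difference -0.09 ± 0.12 SE, limma p = 0.434, exact permutation p = 0.400). Its highest value was that of KO-labelled mouse 2, and in the other 3 pairs the KO-labelled library was the lower one. Atp6v0d2, the subunit d isoform found in osteoclasts and macrophages, had 4.76, 12.9, 6.63 and 6.65 FPKM in KO-labelled and 8.73, 9.84, 7.05 and 7.51 FPKM in Atg5 WT libraries. Its lowest and its highest value were both in the KO-labelled group, in mouse 1 and mouse 2 (log2 difference -0.16 ± 0.24 SE, limma p = 0.527, exact permutation p = 0.600), and without KO-labelled mouse 2 its adjusted p was 1.000, its unadjusted p being under 0.05.

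The summed FPKM of 8 osteoclast markers was 101, 390, 224 and 262 in KO-labelled libraries, against 110, 230, 165 and 214 in Atg5 WT libraries. It was lowest in mouse 1 of both groups, whereas Atp6v0d2 was not low in Atg5 WT mouse 1, and it was highest in KO-labelled mouse 2. Ctsk, Mmp9 and Acp5 made up most of the sum, Calcr and Oscar were under 1 FPKM throughout, and Ocstamp and Itgb3 were highest in Atg5 WT mouse 4. Its part in the Atp6v0d2 values was not tested. The remaining V0 genes lay close together. Atp6v0d1, the common subunit d, averaged 87.2 ± 6.47 FPKM in KO-labelled and 87.2 ± 6.99 FPKM in Atg5 WT libraries, and Atp6v0e, a small membrane subunit, 39.3 ± 3.38 FPKM in KO-labelled and 39.1 ± 4.96 FPKM in Atg5 WT libraries (SD, n = 4 each). Atp6v0a1 lay between 29.2 and 41.1 FPKM in KO-labelled and between 31.8 and 42.3 FPKM in Atg5 WT libraries. The accessory protein Atp6ap1 lay between 122 and 138 FPKM in KO-labelled and 127 and 150.2 FPKM in Atg5 WT libraries, and Atp6ap2 between 70.1 and 94.8 FPKM in KO-labelled and 72.8 and 110.3 FPKM in Atg5 WT libraries.

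The share of each isoform within the pump differed between the groups by less than its spread between libraries. FPKM is per length, so levels can be compared between genes. Of the summed FPKM of subunit a, which holds the proton channel, Tcirg1 (the a3 isoform of lysosomes and osteoclasts) made up 75.3% ± 1.64 in KO-labelled and 75.4% ± 1.36 in Atg5 WT libraries (SD, n = 4 each, exact permutation p = 0.971). Atp6v0a1 made up 15.7% ± 1.43 in KO-labelled and 15.9% ± 0.976 in Atg5 WT libraries (exact permutation p = 0.743), Atp6v0a2 most of the rest, and Atp6v0a4 at most 0.0915%. Atp6v0d2 made up 7.97% ± 2.80 of subunit d in KO-labelled and 8.67% ± 1.07 in Atg5 WT libraries (exact permutation p = 0.657). The kidney and testis isoforms were close to 0: Atp6v1b1 was at most 0.298% of subunit B and Atp6v1e2 at most 0.689% of subunit E, and Atp6v1g3 was listed at 0 in all 8 libraries.

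**Figure D3:**
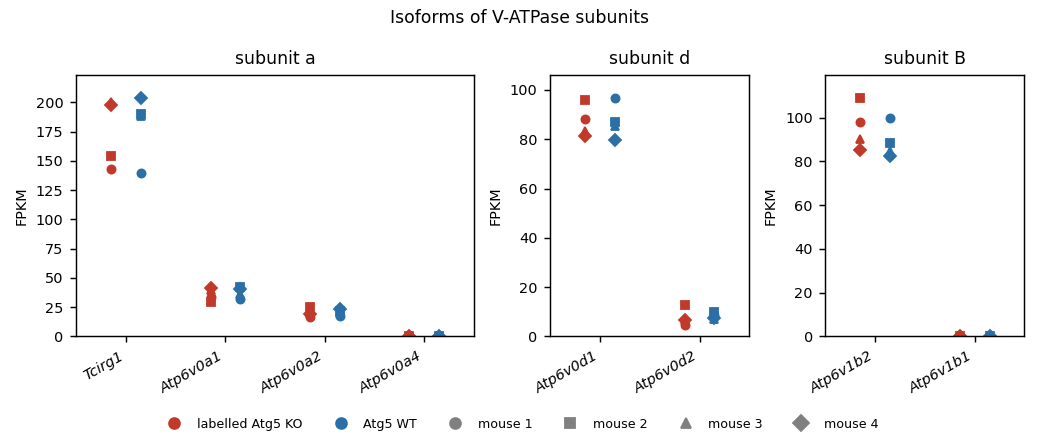
FPKM of the isoforms of V-ATPase subunits a, d and B in each library, KO-labelled libraries (red) left of Atg5 WT libraries (blue), marker shape giving the mouse number. Tcirg1 lies between 139 and 204 FPKM and is the main isoform of subunit a in all libraries, and Atp6v0a4 and Atp6v1b1 lie at or near 0.

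Membrane and lipid transport proteins showed 4 positive and 3 negative differences, with no p under 0.05 and a median at 0.00012. Cd63 (ENSMUSG00000025351, chr10:128908919-128912816, mm10), a tetraspanin of late endosomes and lysosomes, had the smallest p of the 45. It had 289.6, 248, 222 and 266 FPKM in KO-labelled mice 1 to 4, against 362, 310.4, 295 and 269 FPKM in Atg5 WT mice 1 to 4. The KO-labelled library was the lower one in each of the 4 pairs, while KO-labelled mouse 1 lay above Atg5 WT mouse 4, so that the groups overlapped. The means were 256 ± 28.8 FPKM in KO-labelled and 309 ± 39.3 FPKM in Atg5 WT libraries (SD, n = 4 each). The log2 difference was -0.27 ± 0.13 (SE, limma p = 0.0596, adjusted p = 0.999, exact permutation p = 0.0571), and its adjusted p was 0.564 with the mouse number as a block. A pseudogene copy, Cd63-ps, is also listed, at up to 3.98 FPKM, and how shared reads were assigned is not stated in any source used here.

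Npc2, which hands cholesterol to Npc1 in the lysosome, had 249, 243, 269.9 and 245.5 FPKM in KO-labelled and 292.5, 290.6, 264.5 and 257 FPKM in Atg5 WT libraries. Its groups overlapped through mouse 3 alone in the KO-labelled group, the other 3 KO-labelled libraries lying below all of the Atg5 WT libraries (log2 difference -0.13 ± 0.09 SE, limma p = 0.192, adjusted p = 0.999, exact permutation p = 0.0857). Npc1 itself averaged 29.2 ± 1.01 FPKM in KO-labelled and 29.2 ± 1.38 FPKM in Atg5 WT libraries (SD, n = 4 each), with a 95% interval of the log2 difference from -0.20 to 0.20. Npc1 overlaps 3110002H16Rik, a gene on the other strand with up to 11.4 FPKM, so its values may hold shared fragments.

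Lamp1, a main glycoprotein of the lysosomal membrane, had 395, 366, 325 and 334 FPKM in KO-labelled and 435, 342, 326.5 and 303 FPKM in Atg5 WT libraries (log2 difference 0.02 ± 0.13 SE, limma p = 0.860, exact permutation p = 0.914). In both groups mouse 1 was the highest. Lamp2, its paralog, which also serves chaperone-mediated autophagy, was spread in the same way, from 87.7 to 142 FPKM in KO-labelled and from 88.5 to 155 FPKM in Atg5 WT libraries, with mouse 1 at the top of both groups. Scarb2, the receptor that carries glucocerebrosidase to lysosomes, lay between 50.6 and 59.3 FPKM in KO-labelled and 51.1 and 61.1 FPKM in Atg5 WT libraries, and Mcoln1, a cation channel that releases calcium from lysosomes, between 16.2 and 19.4 FPKM in KO-labelled and 16.6 and 19.1 FPKM in Atg5 WT libraries.

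Glycosidases, which cut sugars from glycogen, glycolipids and glycoproteins, showed the most one-sided signs. Of the 10, 9 had a negative difference, with a median of -0.12, and Manba, a beta-mannosidase, was the exception at 0.06. No p was under 0.05. The median was negative under each scaling tried, from -0.15 with median-of-ratios scaling to -0.09 with TPM scaling, and it was -0.10 without mouse 1 of both groups, -0.06 without KO-labelled mouse 1 alone and -0.21 in the mouse 1 pair alone. By pair, 1, 4, 4 and 1 of the 10 genes were higher in the KO-labelled library in mice 1 to 4. The summed FPKM of the 10 genes was 727, 776, 818 and 800.1 in KO-labelled libraries, against 851, 868, 865 and 854 in Atg5 WT libraries. These sums did not overlap between the groups, and as the genes were chosen with earlier results known they are given with no test. Hexa, Man2b1 and Gusb, with means of 208, 202 and 160 FPKM over all libraries, carried most of each sum. The sums therefore describe mainly these genes and not the group as a whole. In each other role group, and over all 45 genes, the summed FPKM overlapped between the groups. Over all 45 genes it was 5769 to 6394 in KO-labelled and 6296 to 6618 in Atg5 WT libraries.

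Hexa (ENSMUSG00000025232, chr9:59539667-59565105, mm10), the alpha subunit of the beta-hexosaminidase that degrades GM2 ganglioside, was the most abundant glycosidase. It had 187, 190.4, 201 and 201 FPKM in KO-labelled mice 1 to 4, against 233, 218, 220.4 and 209 FPKM in Atg5 WT mice 1 to 4. Each KO-labelled library lay below each Atg5 WT library, the closest pair being KO-labelled mouse 3 and Atg5 WT mouse 4. The means were 195 ± 7.19 FPKM in KO-labelled and 220 ± 9.69 FPKM in Atg5 WT libraries (SD, n = 4 each), a log2 difference of -0.17 ± 0.09 (SE, limma p = 0.0741, adjusted p = 0.999, exact permutation p = 0.0286, the smallest possible). Hexa was the only one of the 45 genes whose groups did not overlap (2.22%), against 1.74% of all genes tested, of which 0.590% had the KO-labelled libraries below and 1.15% above, so the count was near the background.

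Naglu (ENSMUSG00000001751, chr11:101070012-101077672, mm10), which degrades heparan sulfate and whose promoter window is shown above, was named after its values were seen, for its call with the mouse number as a block. It had 30.6, 37.9, 50.2 and 49.7 FPKM in KO-labelled mice 1 to 4, against 34.8, 48.1, 52.5 and 56.8 FPKM in Atg5 WT mice 1 to 4. The KO-labelled library was the lower one in all 4 pairs, and mouse 1 was the lowest of both groups, so that the groups overlapped widely (log2 difference -0.19 ± 0.20 SE, limma p = 0.351, exact permutation p = 0.400). Neu1, a sialidase, and Man2b1, a lysosomal alpha-mannosidase, were also lower in the KO-labelled library of all 4 pairs and overlapped between the groups. Neu1 lay between 28.9 and 42.9 FPKM in KO-labelled and 30.5 and 46.6 FPKM in Atg5 WT libraries, and Man2b1 between 176 and 204 FPKM in KO-labelled and 202 and 226 FPKM in Atg5 WT libraries.

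The other glycosidases overlapped between the groups. Gusb, the beta-glucuronidase, averaged 154 ± 7.79 FPKM in KO-labelled and 166 ± 7.12 FPKM in Atg5 WT libraries (SD, n = 4 each, limma p = 0.252, exact permutation p = 0.0857), and 3 of its 4 KO-labelled libraries lay below every Atg5 WT library. Fuca1, a fucosidase, lay between 44.7 and 60.2 FPKM in KO-labelled and 53.8 and 58.4 FPKM in Atg5 WT libraries. Gaa, which degrades glycogen, lay between 20.8 and 30.3 FPKM in KO-labelled and 18.8 and 31.2 FPKM in Atg5 WT libraries. Gla, the alpha-galactosidase with a pair of E-box matches shown above, lay between 27.7 and 51.7 FPKM in KO-labelled and 30.1 and 54.0 FPKM in Atg5 WT libraries. Glb1, a beta-galactosidase, was the steadiest at 23.1 ± 0.400 FPKM in KO-labelled and 24.3 ± 1.82 FPKM in Atg5 WT libraries, and Manba lay between 19.8 and 23.3 FPKM in KO-labelled and 17.8 and 23.3 FPKM in Atg5 WT libraries.

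**Figure D4:**
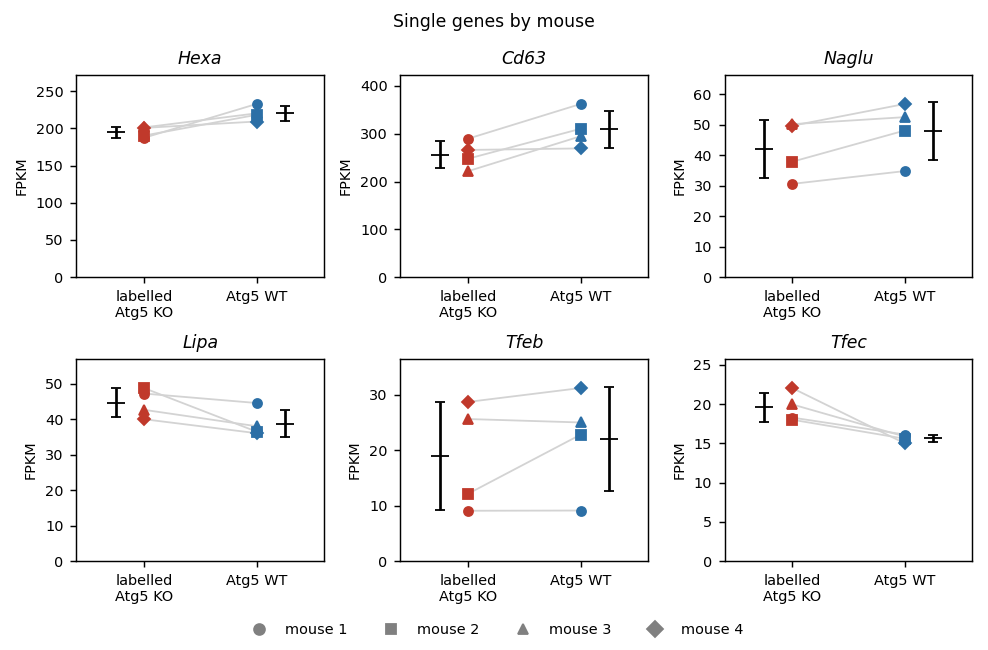
FPKM (linear axis from 0) of Hexa, Cd63, Naglu, Lipa, Tfeb and Tfec in each library, KO-labelled left and Atg5 WT right, with lines joining libraries of the same mouse number and bars giving the mean ± SD of each group (n = 4). Hexa and Tfec do not overlap between the groups, and the lines of Cd63 and Naglu all run lower on the KO-labelled side while those of Lipa all run higher.

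Lipid and protein hydrolases, sulfatases and Psap showed 3 positive and 6 negative differences with a median of -0.04, again with no p under 0.05, and without mouse 1 their median was 0.01. Lipa (ENSMUSG00000024781, chr19:34492318-34527474, mm10), the acid lipase that frees cholesterol and fatty acids from engulfed lipids, had the largest positive difference of the 45. It had 47.2, 48.8, 42.6 and 40.0 FPKM in KO-labelled mice 1 to 4, against 44.6, 36.5, 38.0 and 36.1 FPKM in Atg5 WT mice 1 to 4. The KO-labelled library was the higher one in all 4 pairs, and the groups overlapped through Atg5 WT mouse 1. The means were 44.7 ± 4.05 FPKM in KO-labelled and 38.8 ± 3.94 FPKM in Atg5 WT libraries (SD, n = 4 each), a log2 difference of 0.20 ± 0.11 (SE, limma p = 0.103, adjusted p = 0.999, exact permutation p = 0.0857).

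Arsb, a sulfatase of dermatan and chondroitin sulfate, had 4.79, 5.21, 4.68 and 6.46 FPKM in KO-labelled and 4.22, 4.43, 4.54 and 4.95 FPKM in Atg5 WT libraries. It too was higher in the KO-labelled library of each pair, with Atg5 WT mouse 4 inside the range of the KO-labelled group (log2 difference 0.18 ± 0.12 SE, limma p = 0.164, exact permutation p = 0.114). Psap had 2254, 2821, 2907 and 2793 FPKM in KO-labelled and 2627, 3000, 2796 and 2884 FPKM in Atg5 WT libraries. Its lowest value in each group was that of mouse 1 (log2 difference -0.07 ± 0.11 SE, limma p = 0.511, exact permutation p = 0.600).

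Arsa, the sulfatase of sulfatides, lay between 13.3 and 20.9 FPKM in KO-labelled and 19.1 and 19.8 FPKM in Atg5 WT libraries, its low value being that of KO-labelled mouse 2. Sgsh lay between 2.91 and 4.25 FPKM in KO-labelled and 3.67 and 3.84 FPKM in Atg5 WT libraries. Asah1, the acid ceramidase, lay between 95.1 and 141 FPKM in KO-labelled and 86.6 and 153 FPKM in Atg5 WT libraries, and Smpd1, the acid sphingomyelinase, between 6.67 and 8.44 FPKM in KO-labelled and 8.02 and 8.61 FPKM in Atg5 WT libraries. The peptidase Tpp1 lay between 42.8 and 52.2 FPKM in KO-labelled and 43.5 and 53.5 FPKM in Atg5 WT libraries. Ppt1, which removes palmitate from proteins, lay between 46.1 and 58.3 FPKM in KO-labelled and 46.2 and 71.3 FPKM in Atg5 WT libraries. Ppt1 overlaps Cap1, a gene on the other strand with up to 219 FPKM, and the strand setting of the counting is not stated in any source used here, so its values are uncertain.

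The TFEB family, which switches on lysosomal genes, showed 1 positive and 2 negative differences with a median of -0.06. Tfeb (ENSMUSG00000023990, chr17:47737030-47792419, mm10) varied more between mice than any other of the 45 genes. It had 9.09, 12.2, 25.6 and 28.7 FPKM in KO-labelled mice 1 to 4, against 9.13, 22.8, 25.01 and 31.2 FPKM in Atg5 WT mice 1 to 4. Mouse 1 had the lowest value of each group, with KO-labelled mouse 2 next to it, and the mouse 1 mean was 0.38 times that of the other 6 libraries. The log2 difference between the groups was -0.24 ± 0.43 (SE, limma p = 0.594, exact permutation p = 0.80, 95% interval -1.20 to 0.72). It was -0.31 without mouse 1 of both groups and 0.04 without KO-labelled mouse 1, which also turned the median of the 3 genes to 0.04.

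Tfe3 had 16.3, 16.4, 18.45 and 19.5 FPKM in KO-labelled and 14.7, 20.2, 19.7 and 19.5 FPKM in Atg5 WT libraries (log2 difference -0.06 ± 0.12 SE, limma p = 0.645, exact permutation p = 0.743). It was lowest in mouse 1 of both groups, less far below the rest than Tfeb. Mitf had 8.89, 11.0, 9.999 and 9.60 FPKM in KO-labelled and 10.2, 9.43, 9.04 and 9.14 FPKM in Atg5 WT libraries, with no shared low in mouse 1 (log2 difference 0.06 ± 0.10 SE, limma p = 0.584, exact permutation p = 0.486). These are RNA levels, and the location of the factors in the cell was not measured. Among the 38 genes with a promoter sequence, the 12 with CACGTG had a median log2 difference of -0.05 (4 positive, range -0.19 to 0.08), and the 26 without it a median of -0.06 (7 positive, range -0.27 to 0.20).

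In the mouse 1 pair 6 of the 45 genes were higher in the KO-labelled library (13.3%), against 56.5% of all genes tested, with a median difference of -0.13. In mice 2, 3 and 4 the counts were 24, 26 and 19 of the 45, against 53.3%, 53.4% and 59.1% of all genes tested, with medians of 0.02, 0.03 and -0.01. In 7 genes, Atp6v1h, Lamp1, Lamp2, Manba, Asah1, Tpp1 and Ppt1, both mouse 1 libraries lay above the other 6, which was so for 29.8% of all genes tested, so this was rarer among the 45 than in the background. In 8 genes, Atp6v1f, Mcoln1, Gaa, Naglu, Neu1, Psap, Tfeb and Tfe3, both lay below the other 6, which was so for 14.7% of all genes, a share near theirs. KO-labelled mouse 2 was the highest library for 9 of the 45 genes, where it was the highest for 12.8% of all genes. It was the lowest for 6 of the 45, where it was the lowest for 18.9% of all genes. The fibroblast marker sum that stood out in mouse 1 is given above, and its part in these differences was not tested.

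**Figure D5:**
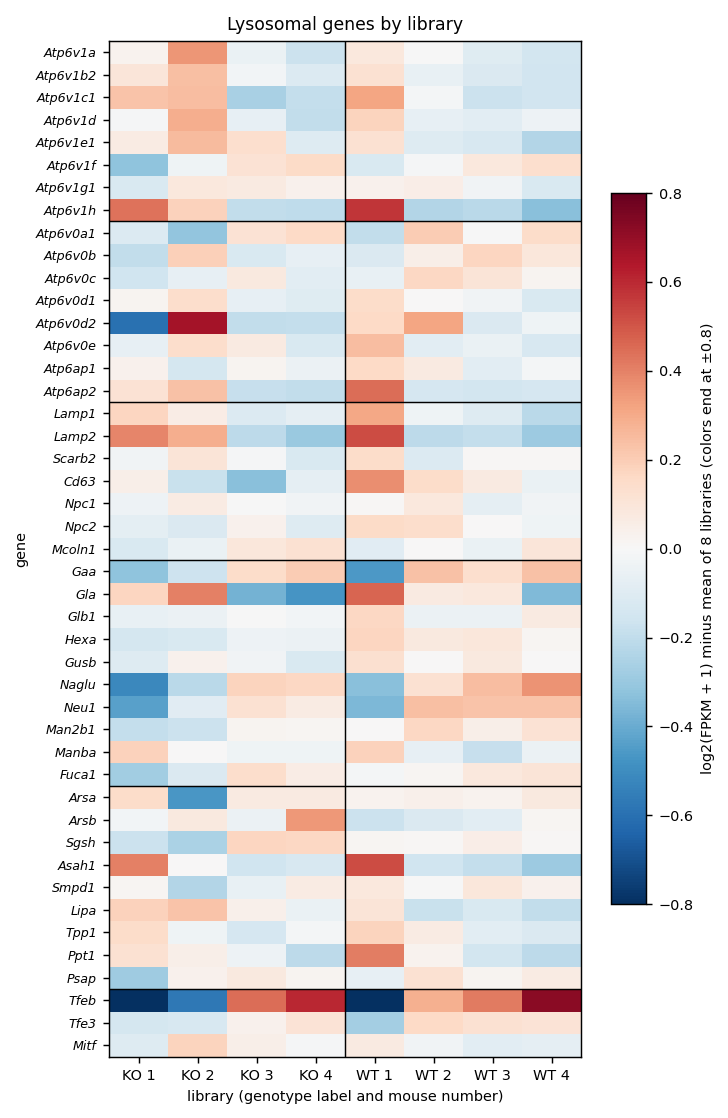
Deviation of log2(FPKM + 1) of each gene from its mean over the 8 libraries (color scale ending at ±0.8), with the 4 KO-labelled libraries left of the 4 Atg5 WT libraries and lines between the role groups. The mouse 1 columns of both groups resemble each other, with Lamp2, Atp6v1h and Asah1 high and Tfeb, Naglu and Neu1 low.

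Other genes of the same pathway were taken from lists covering the rest of the lysosome, and none passed an adjusted p of 0.05. Of 12 other V-ATPase isoforms, assembly factors and regulators tested, 1 had a limma p under 0.05 and was higher, against 2.02% of all genes either way and 1.20% higher, and 1 gene is too few to set against that background. It was Dmxl2, a scaffold of the complex that assembles the pump. Dmxl2 had 15.9, 14.7, 13.4 and 12.6 FPKM in KO-labelled and 13.2, 11.2, 9.76 and 10.3 FPKM in Atg5 WT libraries, with Atg5 WT mouse 1 inside the KO-labelled range (log2 difference 0.33 ± 0.12 SE, limma p = 0.0224, adjusted p = 0.999, exact permutation p = 0.0571). Rogdi and Dmxl1, of the same complex, had log2 differences of -0.30 (exact permutation p = 0.171) and 0.19 (exact permutation p = 0.286).

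None of the 25 other membrane proteins and transporters tested had a limma p under 0.05. The smallest were those of Slc11a1, the metal transporter of phagosomes (105 ± 18.5 FPKM in KO-labelled and 85.5 ± 9.88 FPKM in Atg5 WT libraries, SD, n = 4 each, exact permutation p = 0.114), Slc15a4, a peptide and histidine transporter (log2 difference -0.25, exact p = 0.0857), and Cd68, a glycoprotein akin to the Lamp family (-0.23, exact p = 0.114). None of the 37 other hydrolases and activators tested did either, 13 differences being positive and 24 negative. Gm2a, the activator that presents GM2 ganglioside to the enzyme of which Hexa is a subunit, had 160.4, 147, 189.1 and 171.5 FPKM in KO-labelled and 199, 193, 189.6 and 198 FPKM in Atg5 WT libraries. Like Hexa, it was lower in each KO-labelled library than in each Atg5 WT library, by a narrow gap at mouse 3, as were 0.590% of all genes tested (log2 difference -0.23 ± 0.10 SE, limma p = 0.0509, adjusted p = 0.999, exact permutation p = 0.0286). Dpp7, a dipeptidase (log2 difference -0.26, exact permutation p = 0.0857), and Pla2g15, a phospholipase (-0.21, exact p = 0.143), followed.

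Of the 15 genes of mannose 6-phosphate tagging and sorting, none had a limma p under 0.05. Gnptg, a subunit of the enzyme that places the tag, had 6.39, 7.29, 8.09 and 7.71 FPKM in KO-labelled and 9.24, 8.12, 9.14 and 8.62 FPKM in Atg5 WT libraries (log2 difference -0.23 ± 0.10 SE, limma p = 0.0522, adjusted p = 0.999, exact permutation p = 0.0286). It was the 1 gene of the 15 without overlap between the groups. Of all genes tested, 1.74% had no overlap, 0.590% with the KO-labelled libraries below, and a count of 1 is read no further. The sorting receptors Sort1 and Igf2r had log2 differences of 0.30 (exact permutation p = 0.0857) and 0.23 (exact permutation p = 0.171).

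Of the 19 genes tested that control the TFEB family, or belong to its wider kin, 1 had a limma p under 0.05 and was higher, where 2.02% of all genes did so either way and 1.20% higher. In 2 of the 19 the KO-labelled libraries lay above every Atg5 WT library, as in 1.15% of all genes, and counts this small are read no further. This was Tfec, another member of the MiT family with high levels in macrophages and not one of the 45 genes. Tfec had 18.3, 18.01, 19.96 and 22.0 FPKM in KO-labelled and 16.1, 15.6, 15.9 and 15 FPKM in Atg5 WT libraries, so that each KO-labelled library lay above each Atg5 WT library (log2 difference 0.30 ± 0.10 SE, limma p = 0.0121, adjusted p = 0.999, exact permutation p = 0.0286). Fnip2, a partner of folliculin, also lay higher in each KO-labelled library than in each Atg5 WT library. It had 12.8, 15.6, 12.3 and 11.23 FPKM in KO-labelled libraries, against 11.21, 10.9, 10.7 and 9.96 FPKM in Atg5 WT libraries (log2 difference 0.25 ± 0.11 SE, limma p = 0.0515, adjusted p = 0.999, exact permutation p = 0.0286). Flcn, which codes for folliculin, had 28.5 ± 4.18 FPKM in KO-labelled and 35.2 ± 4.95 FPKM in Atg5 WT libraries (SD, n = 4 each, limma p = 0.0610, exact permutation p = 0.114), with overlap.

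In the fit that carries the mouse number as a block, more of these other genes had an unadjusted p under 0.05, as did 5.19% of all genes in the higher and 3.62% in the lower direction. Among the V-ATPase genes Dmxl2 was higher and Rogdi lower, and among the membrane proteins Slc11a1 was higher and Slc15a4 lower. Of the 37 hydrolases and activators 0 were higher and 4 lower, Gm2a, Dpp7, Pla2g15 and Pld3, and Pld3 is a nuclease named here for that call. Of the 15 sorting genes Sort1 was higher and Gnptg lower. Of the 19 TFEB control genes Tfec and Fnip2 were higher and Flcn lower. None of them passed an adjusted p of 0.05 in that fit.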

How the data were processed

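RNA sequencing was analysed for 8 libraries of sorted TAMs, 4 labelled Atg5 KO and 4 labelled Atg5 WT. Total RNA from 500000 to 1000000 cells was made into libraries with a NEBNext Ultra kit, per the labels' protocols. CASAVA, STAR and the mm10 build are named, with no versions, per the submitters' processing notes. Which tool counted the fragments, whether strand was used, and which annotation applied is not stated in any source used here. One table of FPKM was deposited by the authors, covering 35275 genes with their coordinates and lengths. FPKM is relative to each library's assigned total, so a change in some genes moves the others. FPKM multiplied by gene length gave whole multiples of 1 step per library (within 0.01) for all values, from which fragments were recovered. Each pair of libraries differed beyond sampling noise, the lowest chi-square being 9.18 per degree of freedom.

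Genes with a mean of at least 1 FPKM over the 8 libraries (11019) were tested on log2(FPKM + 1) with limma 3.58.1 in R 4.3.3 with a mean-variance trend and Benjamini-Hochberg adjustment at 0.05. The pseudocount of 1 understates differences of low genes. Single genes were also tested by exact permutation (numpy 2.4.6), and the 95% intervals were computed with scipy 1.17.1. A count test on recovered fragments used voom as an alternative, with scaling, filter, pseudocount, array weight, replicate block and left-out library alternatives beside it. The script was tested on simulated fragments. With the mouse numbers, same-numbered libraries deviated together from their group means with correlations over genes of 0.841, 0.208, 0.458 and 0.471 in mice 1 to 4. As all exceeded 0.1, they met the criterion for pairs, and a blocked fit is given beside results it changes, the main tests being unpaired. This rests on the correlations, the labels naming only separate mice. Without mouse 1 the correlations were 0.297, -0.134 and 0.205, so it rests largely on mouse 1, whose shift by itself also raises the other 3 correlations.

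The genes, lists and tests were chosen with earlier results of these data known. Within each role group, values per library were given for genes with an unadjusted p under 0.05 or groups that do not overlap, otherwise for the 2 with the smallest p, and for the most abundant gene, all of the TFEB family and Atp6v0d2. The other genes are given by ranges. Up to 3 genes with the smallest p were named from each list of other genes. Of the 45 genes, 10 overlap another annotated gene, 9 of them one on the other strand, and their fragments may be shared. Besides Ppt1 and Npc1, they include Atp6v1b2 (with Gm15717, up to 7.51 FPKM) and Glb1 (with Tmppe, up to 5.56 FPKM), both on the same strand. Promoter sequences are from RefSeq (GRCm38.p6).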

Additional observations from a re-analysis of the deposited data

Results flagged for a closer look

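A library far from the other 3 of its group was found in 11 of 92 groups of 4 values examined, where chance gives about 1 in 20. The 92 groups come from the same libraries and are not independent, so that rate is only a rough guide. Of the 11, 9 were mouse 1 libraries. In the Atg5 WT mouse 1 library, Atp6v1d was high at 66.3 FPKM (55.2 to 56.9 FPKM in the other 3), as were Atp6v1h at 49.7 (26.1 to 28.5), Atp6ap2 at 110 (72.8 to 73.4), Lamp2 at 155 (88.5 to 94.5), Asah1 at 153 (86.6 to 95.1) and Atg5 at 6.73 FPKM (3.504 to 3.93). In the same library Neu1 was low at 30.5 FPKM (46.2 to 46.6 in the other 3), as was Tfe3 at 14.7 FPKM (19.5 to 20.2). Among KO-labelled libraries, Manba was high in mouse 1 at 23.3 FPKM (19.8 to 20.4), and Arsa was low in mouse 2 at 13.3 FPKM (19.7 to 20.9). Sgsh in Atg5 WT mouse 3, at 3.84 FPKM (3.67 to 3.69), differed by little in absolute terms.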

How the results depend on the processing

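No gene of the 45 passed an adjusted p of 0.05 in any of the 19 other fits (smallest 0.315, with array weights), and 17 of the 45 held their sign in all of them. Over all genes, the count past the adjusted threshold was 0 (also 0 with voom, with 217 at an unadjusted p under 0.05), and 1 with the replicate block, median-of-ratios scaling, quantile normalization, array weights, without mouse 1 of both groups, and with the block without mouse 1, 8 with voom and the block, and 0 to 1 with 1 library left out. At an unadjusted p under 0.05 it was 223, and 540 with no filter, 971 with the replicate block, 1282 with array weights, 618 without mouse 1, 710 with the block without mouse 1, 1118 with voom and the block, and 109 to 833 with 1 library left out. For the 45 genes that count was 0, and 3 with the block, 1 with median-of-ratios scaling, 4 with array weights (Atp6v1e1, Lipa, Cd63 and Atp6v0b), 2 without mouse 1, 1 with the block without mouse 1 (Atp6v1e1), 3 with voom and the block, and 0 to 2 with 1 library left out (Neu1 and Lipa without Atg5 WT mouse 1, Cd63 without KO-labelled mouse 1 or Atg5 WT mouse 4, Atp6v0d2 without KO-labelled mouse 2). The voom fit with the block and the fits with the block without mouse 1 were added after the data were seen. In the mouse 1 pair alone the medians were -0.13 for the 45 genes, -0.11 for V1, -0.14 for membrane proteins and -0.21 for glycosidases. The median of the other hydrolases and Psap, -0.04, was -0.0050 under TPM scaling, 0.02 with array weights, 0.01 without mouse 1, 0.01 with the block without mouse 1, and -0.06 to 0.04 with 1 library left out. Of the calls at an unadjusted p over all genes, 132 were higher and 91 lower, and the split was 188 and 69 under TPM scaling, 107 and 141 under median-of-ratios scaling and 107 and 129 under quantile normalization. The causes of these shifts were not tested. Each value of the 45 genes rested on at least 205 fragments, and 4 libraries per group limit the precision.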
